A study of Nematostella vectensis and Apis mellifera and Strongylocentrotus purpuratus with 22 samples.

Results

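The WNT5 regions of a sea anemone, Nematostella vectensis, of the honey bee, Apis mellifera, and of a sea urchin, Strongylocentrotus purpuratus, were followed through gametes and early embryos, CpG by CpG. Their members are the CpGs with at least 5 reads that lie within the scaffold coordinates printed by the study for WNT5. The sea anemone, honey bee and sea urchin regions are 21185 bp, 27930 bp and 76869 bp long and held 775, 747 and 1185 such CpGs in at least 1 sample. The calls list between 7462253 and 14960917 CpGs per sample over the whole assemblies.

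WNT5 is a secreted ligand of the WNT family. In vertebrates it is known mainly for signals through Frizzled and Ror receptors that orient cells and steer their movements during gastrulation, rather than through β-catenin. DNA methylation at CpGs is mosaic in many invertebrates: methylated stretches, often within gene bodies, alternate with stretches that carry almost none. In whole-genome bisulfite sequencing (WGBS), an unmethylated cytosine is read as thymine and a methylated one as cytosine, so the methylation level of a CpG is its share of reads with methylation, between 0 and 1.

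All animals were wild type. The sea anemone samples were sperm, cleavage embryos and blastulae from a Massachusetts set, and sperm, oocytes, cleavage embryos, blastulae and gastrulae from a Florida set. The honey bee samples were sperm, oocytes (unfertilized eggs), and embryos of workers and drones at the blastoderm and gastrula stages. Drone embryos came from eggs laid on drone combs and worker embryos from eggs laid on worker combs. The sea urchin samples were sperm, oocytes, cleavage embryos and blastulae. Of the 22 samples of the series, 18 belong to these species. Each stage has 1 set of read counts, pooled where the labels name several replicates, so a test here compares 2 sets of libraries and not 2 conditions, and no difference has a replicate check. Intervals cover counting error only.

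Depth differed between samples. The calls rest on 69290307 to 389977166 reads over CpGs in sea anemone, 47356912 to 601450469 in honey bee and 181029899 to 453262146 in sea urchin. Within the WNT5 regions the median CpG had 11 to 64 reads in sea anemone, 7 to 83 in honey bee and 15 to 32 in sea urchin. The lowest value belongs to honey bee oocytes, which had at least 5 reads at only 395 of the 747 CpGs. The other 5 honey bee samples covered 726 to 747 CpGs with a median of 21 to 83 reads.

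The 3 WNT5 regions were mostly unmethylated in gametes and embryos alike, and each carried its methylation in 1 part of its length. Mean CpG levels were 0.0173 to 0.0239 in the sea anemone region, 0.0216 to 0.0444 in the honey bee region and 0.203 to 0.219 in the sea urchin region. Over all CpGs of the assemblies the means were 0.113 to 0.144, 0.0116 to 0.0150 and 0.240 to 0.261 in the same order of species. The sea anemone region thus lay below its assembly and the honey bee region above it in every sample, and the sea urchin region lay below its own in every sample too. These are descriptions of single regions and carry no test. The gene was not placed within its printed region. Whether the methylated parts lie within WNT5 or in sequence beside it is therefore not known. A CpG is called methylated here from a level of 0.5 and unmethylated up to 0.1. By this measure 8 to 10 CpGs of the sea anemone region were methylated per sample, 26 to 30 of the honey bee region outside oocytes (6 in oocytes), and 205 to 256 of the sea urchin region. The honey bee oocyte values are not comparable with the others, since they rest on fewer CpGs, with none in segment 2 of 10 equal segments of the region: over the 395 CpGs shared with sperm, the mean was 0.0216 in oocytes and 0.0228 in sperm. Among CpGs covered in every sample, 612 of 682 (89.7%), 369 of 395 (93.4%) and 627 of 856 (73.2%) were unmethylated in all of them. The honey bee share rests on the CpGs covered in oocytes. These were 23 of 78 in segments 1 to 3, which held most of its methylation, and 372 of 669 in the others. The share therefore leans toward the unmethylated segments.

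In sea anemone, all methylated CpGs stood in a single short cluster. The 11 CpGs that reached 0.5 in any sample lie on scaffold_116 of ASM20922v1 between positions 283666 and 284982, all in segment 2 when the region is divided into 10 equal segments from low to high coordinate. That segment held 15 covered CpGs, or 7.08 per kb, against 39.9 per kb in the other 9 segments. Its mean level was 0.522 to 0.649 over the 8 samples, against 0.00633 to 0.0116 in the rest of the region. No CpG outside segment 2 reached 0.5 in any sample. From 284648, the last CpG methylated in every sample, 17857 bp (84.3% of the region) followed without another such CpG. The CpG at 284809 was left out by depth alone. It was methylated in all 7 samples with at least 5 reads there (0.556 to 0.878), and Massachusetts cleavage embryos had 3 of 4 reads methylated.

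The cluster was highest in its middle and lower at its ends, without an even gradient. Toward the high end, median levels over samples were 0.673 at 284648, 0.791 at 284809 and 0.4205 at 284982. The CpG at 283957 had 0.944, 0.9 and 0.923 in sperm, cleavage embryos and blastulae from Massachusetts, and 0.86, 0.889, 0.867, 0.962 and 0.968 in sperm, oocytes, cleavage embryos, blastulae and gastrulae from Florida. Its neighbour at 283917 had 0.938, 0.75 and 1.00 in the Massachusetts samples and 0.976, 0.973, 0.818, 1.00 and 0.951 in the Florida samples, in the same order of stages. At the low end, the CpG at 283666 had 0.3, 0.133 and 0.167 in the Massachusetts samples and 0.44, 0.37, 0.48, 0.540 and 0.481 in the Florida samples. There every Florida sample lay above every Massachusetts sample, and only Florida blastulae reached 0.5. At the high end, the CpG at 284982 had 0.421, 0.364 and 0.579 in the Massachusetts samples and 0.420, 0.410, 0.647, 0.344 and 0.487 in the Florida samples. The ranges of both populations overlapped at that end. Farther out, at 285202, levels were 0 in every Massachusetts sample and 0.2, 0.14, 0.364, 0.0385 and 0.0465 in the Florida samples. At 285408, levels were 0 in 5 samples and at most 0.190. Beyond the low end, 283647 had 0 to 0.273 over the samples, and 283517, still farther out, had 0.227 to 0.435. These outer CpGs were chosen after their values were seen.

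**Figure D1:**
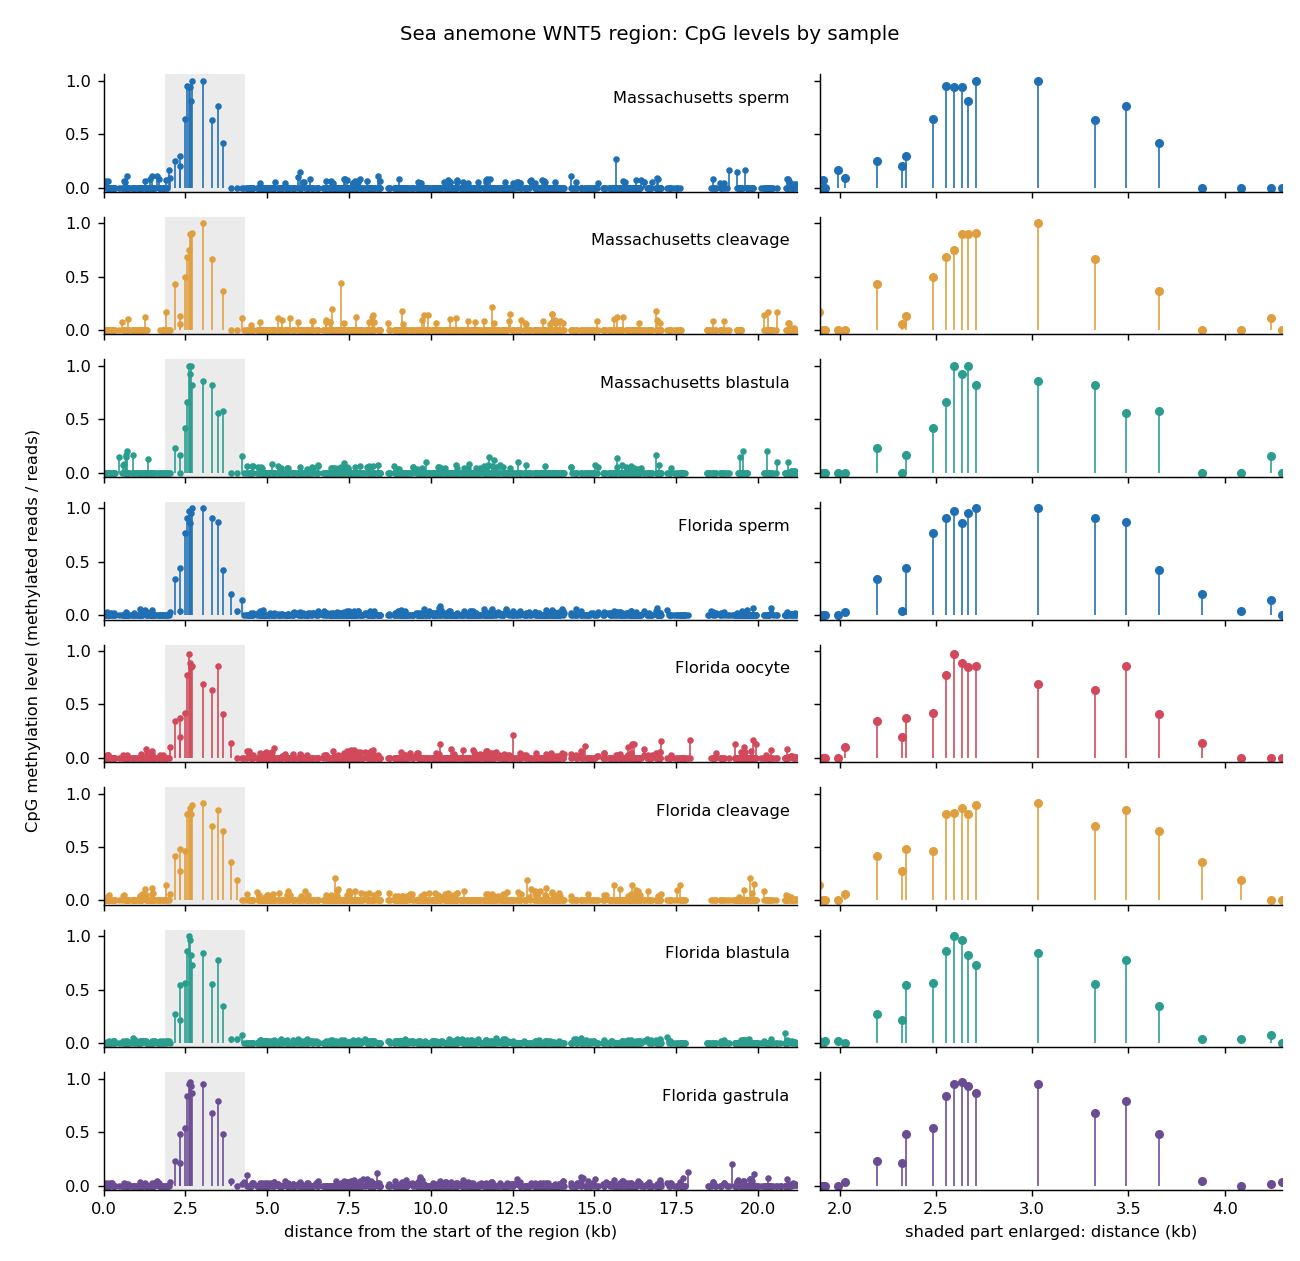
Methylation level of each CpG with at least 5 reads (vertical axis, methylated reads over reads) against its distance from the start of the sea anemone WNT5 region in kb, with 1 row per sample; the right column enlarges the shaded part. In all 8 samples the CpGs from 0.5 stand in the same cluster and the rest of the region lies close to 0.

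Differences between samples within the sea anemone region were small. The 7 CpGs methylated in every sample and 1 more that was methylated in most samples, all with reads in every sample, had a mean level of 0.865, 0.789 and 0.812 in sperm, cleavage embryos and blastulae from Massachusetts, and of 0.922, 0.762, 0.783, 0.793 and 0.840 in sperm, oocytes, cleavage embryos, blastulae and gastrulae from Florida. In both populations sperm had the highest of these means. At single CpGs, stages were compared by Fisher's exact test with Benjamini-Hochberg adjustment over all CpGs of the assembly, and a CpG is called where the adjusted p lies below 0.05 and the levels differ by at least 0.2. Between Florida oocytes and Florida sperm, 1 of 758 CpGs of the region was called, against 1.34% of all CpGs tested. Among CpGs methylated in either sample it was 1 of 9 (11.1%), against 8.56% in the assembly. This was the CpG at 284350, with 25 of 36 reads methylated in oocytes (0.694, 95% Wilson interval 0.531 to 0.820) and 47 of 47 in sperm (1.00, 0.924 to 1.00; Fisher's exact test, adjusted p = 0.00499). It had 0.913, 0.844 and 0.95 in cleavage embryos, blastulae and gastrulae from Florida, and 1.00, 1.00 and 0.857 in sperm, cleavage embryos and blastulae from Massachusetts, all above the oocyte value.

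The other 9 comparisons in sea anemone called no CpG of the region. At an unadjusted p below 0.05 by Fisher's exact test there were 6 of 755 for Florida cleavage embryos over Florida sperm (0.337% called in the assembly), 6 of 754 for Florida cleavage embryos over oocytes (0.168%), 10 of 755 for Florida blastulae over cleavage embryos (0.0077%) and 2 of 765 for Florida gastrulae over blastulae (0.0%). In Massachusetts there was 1 of 687 for cleavage embryos over sperm (0.00445%) and 1 of 692 for blastulae over cleavage embryos (0.0%). Between the populations, Massachusetts over Florida, sperm gave 3 of 725 (2.11%), cleavage embryos 3 of 689 (2.16%) and blastulae 5 of 730 (4.07%). The share called in the assembly was thus at or near 0 for most stage pairs within a population and higher between the populations. It rests on the adjusted p and the minimum difference, so it cannot be set against the unadjusted counts of the region. Shares of the assembly at an unadjusted p were not computed. Windows of 1000 bp with at least 3 CpGs, tested in the same way on their summed reads, gave no call among the 21 or 22 windows of the region in any comparison, with 0 to 7 of them at an unadjusted p below 0.05. At an adjusted p below 0.05 alone, 2 of 22 windows passed for Florida oocytes over sperm, where the largest window difference was −0.1498. In Florida, 1 of 22 passed each for cleavage embryos over sperm, cleavage embryos over oocytes and blastulae over cleavage embryos. All of these differed by less than 0.2. In the assembly, 4.9%, 7.47% and 7.3% of windows were called between Massachusetts and Florida sperm, cleavage embryos and blastulae. Within Florida the share was 1.77% for oocytes over sperm, 1.22% for cleavage embryos over sperm, 1.2% for cleavage embryos over oocytes, 0.214% for blastulae over cleavage embryos and 0.0316% for gastrulae over blastulae. Within Massachusetts it was 3.17% for cleavage embryos over sperm and 0.565% for blastulae over cleavage embryos.

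Over the whole sea anemone region, the mean level of shared CpGs moved by less than 0.007 in each of the 10 comparisons, and the 95% counting interval left out 0 in 5 of them. Florida blastulae stood lowest, with 0.0176 against 0.0239 in Florida cleavage embryos (difference −0.00631, 95% interval −0.00851 to −0.00411, 755 CpGs). Florida gastrulae had 0.0199 against 0.0174 in Florida blastulae (difference 0.00251, 0.00113 to 0.00390). Florida cleavage embryos had 0.0239 against 0.0213 in Florida sperm (0.00264, 0.000369 to 0.00491) and 0.0240 against 0.0204 in Florida oocytes (0.00360, 0.00114 to 0.00606). Massachusetts blastulae had 0.0208 against 0.0181 in Florida blastulae (0.00264, 0.000351 to 0.00492). With reads pooled over CpGs, Florida cleavage embryos over sperm differed by 0.00126 and Massachusetts over Florida blastulae by 0.00140. These levels also contain unconverted cytosines, which were not subtracted. The 9 segments other than segment 2 had 0.0116 in Florida cleavage embryos and 0.00633 in Florida blastulae, the highest and the lowest of the 8 samples. They had 0.00851, 0.00952 and 0.00878 in sperm, oocytes and gastrulae from Florida, and 0.00998 in Massachusetts blastulae. Segment 2 had 0.5708 in Florida blastulae, 0.5972 in Florida gastrulae and 0.5355 in Massachusetts blastulae. The part of conversion in the differences of the region was not tested.

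In honey bee, methylation lay in the low-coordinate part of the region and was broken into short runs. The CpGs that reached 0.5 in at least 2 samples all fell in segments 1 to 3 of 10, on chromosome 1 of GCA_000002195.1. The first of them, at 4598372, had 0.925 in sperm, 1.00 and 0.871 in blastoderm and gastrula of workers and 0.846 and 0.941 in blastoderm and gastrula of drones, with fewer than 5 reads in oocytes. The last CpG methylated in every sample was at 4606358, and 19622 bp (70.3% of the region) followed without another such CpG. It had 0.975 in sperm, 1.00 in oocytes (5 of 5 reads), 1.00 and 0.970 in workers and 0.962 and 0.864 in drones, in the same order of stages. Beyond it, the CpG at 4606373 had 1.00 in sperm, 1.00 and 0.971 in workers and 1.00 and 0.85 in drones. In oocytes 4 of 4 reads were methylated there, too few for a level. The only other CpG beyond 4606358 that reached 0.5 was at 4607916. It did so in drone blastoderm alone, with 0.6 of 5 reads, and had 0.385 in worker gastrula and 0.375 in drone gastrula.

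CpGs of high and low level alternated within these 3 segments. Ordered by position and by the median level over samples, the 740 CpGs covered in at least 3 of the 6 samples fell into 8 runs from 0.5, with 29 CpGs in all, and 8 runs below 0.5. Of the runs from 0.5, 3 were a single CpG. The longest had 11 CpGs over 900 bp, between 4603806 and 4604705, with a mean of 0.667 to 0.86 per sample. Between the methylated CpG at 4598629, where every sample had at least 0.944, and the one at 4600161 lay 20 CpGs over 1461 bp whose median levels did not pass 0.0435. Another 11 CpGs over 693 bp, from 4605527, had a median of 0 each and stood 139 bp before the pair of methylated CpGs at 4606358 and 4606373. The final run below 0.5 held 665 CpGs over 18443 bp, and its mean was 0.00584 to 0.00963 per sample. Segments 1 to 3 had 9.31 covered CpGs per kb and the other 7 had 34.2 per kb. Segment 4, among the latter, had only 6.8 per kb, the fewest of all, and its mean level was at most 0.0506 in any sample.

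**Figure D2:**
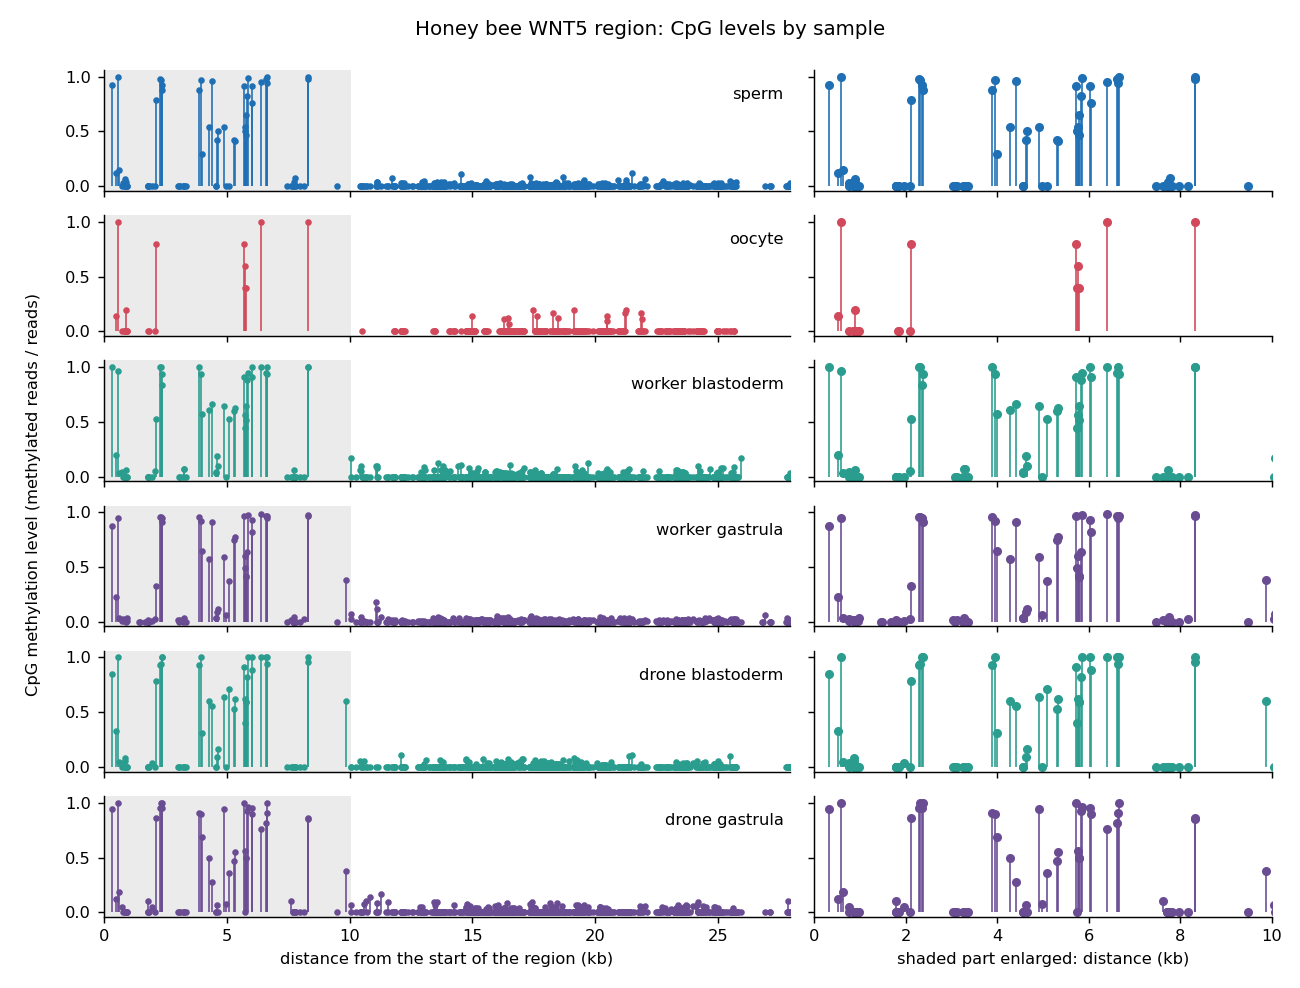
Methylation level of each CpG with at least 5 reads against its distance from the start of the honey bee WNT5 region in kb, with 1 row per sample; the right column enlarges the shaded part. The 5 samples other than oocytes show high and low levels along the same stretches, apart from single CpGs that differ between samples. Oocytes have values at few of these CpGs.

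Some honey bee CpGs held an intermediate level in every sample. At 4603806, a CpG chosen after its values were seen, levels were 0.542 in sperm, 0.6 in oocytes, 0.567 and 0.598 in blastoderm and gastrula of workers and 0.625 and 0.560 in blastoderm and gastrula of drones. It stands 43 bp from the CpG at 4603763, which had 0.911, 0.8, 0.905, 0.969, 0.913 and 1.00 in that order of samples. Leaving out oocytes for their depth, 22 of 711 shared CpGs were methylated in all 5 samples and 32 in at least 1. The 29 CpGs methylated in at least 3 of the 5 samples averaged 0.806 in sperm, 0.834 and 0.814 in blastoderm and gastrula of workers and 0.829 and 0.808 in blastoderm and gastrula of drones. Their levels had a median range over samples of 0.150, and 19 of the 29 (65.5%) stayed within a range below 0.2.

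Differences between samples in the honey bee region were called at single CpGs only. Between worker blastoderm and sperm, 1 of 723 CpGs was called, against 0.023% of all CpGs tested. Among CpGs methylated in either sample it was 1 of 32 (3.12%), against 2.44% in the assembly. This CpG, at 4603144, had 10 of 19 reads methylated in worker blastoderm (0.526, 95% Wilson interval 0.317 to 0.727) and 0 of 35 in sperm, which allows a level of up to 0.0857 (Fisher's exact test, adjusted p = 0.0226). Worker gastrula had 0.373 there, drone blastoderm 0.714 and drone gastrula 0.357, so that sperm stood apart from all 4 embryo samples.

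Between worker and drone gastrula, 3 of 731 CpGs were called, against 0.0705% of all CpGs tested. Among CpGs methylated in either sample it was 2 of 29 (6.9%), against 7.46% in the assembly. At 4600161 the level was 0.324 of 102 reads in worker gastrula and 0.864 of 22 reads in drone gastrula (adjusted p = 0.00976 by Fisher's exact test). The other samples had 0.783 in sperm, 0.8 in oocytes, 0.524 in worker blastoderm and 0.786 in drone blastoderm, so that both worker samples lay below the rest. At 4602454 worker gastrula had 0.912 of 68 reads and drone gastrula 0.273 of 11 reads (Fisher's exact test, adjusted p = 0.0248), with 0.958 in sperm, 0.667 in worker blastoderm and 0.556 in drone blastoderm. At 4603782 worker gastrula had 0.490 of 98 reads and drone gastrula 0 of 23 reads (Fisher's exact test, adjusted p = 0.00481), which allows up to 0.130. There the other 4 samples lay between 0.4 and 0.5, and drone gastrula alone stood apart. When each pair of samples was thinned to the same number of reads, only the call at 4603782 was kept of the 4 in honey bee. The differences at the other 3 were then 0.526 at 4603144, −0.5 at 4600161 and 0.527 at 4602454, on fewer reads.

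The other 6 honey bee comparisons called no CpG of the region. At an unadjusted p below 0.05 by Fisher's exact test there were 0 of 395 for oocytes over sperm (0.000245% called in the assembly), for worker blastoderm over oocytes (0.0%) and for drone blastoderm over oocytes (2.04e-05%), and 0 of 721 for worker over drone blastoderm (0.0%). There were 7 of 730 for worker gastrula over worker blastoderm (0.0029%) and 2 of 717 for drone gastrula over drone blastoderm (0.000145%). The shares in brackets rest on the adjusted p and the minimum difference, so they cannot be set against these unadjusted counts. None of the 18 to 26 windows of the region was called in any of the 8 comparisons by Fisher's exact test, with 0 to 3 at an unadjusted p below 0.05. The assembly had 0.119% of windows called for oocytes over sperm, 0.136% for worker blastoderm over sperm, 0.0171% for worker and 0.024% for drone blastoderm over oocytes. Gastrula over blastoderm gave 0.0178% in workers and 0.0299% in drones, and workers over drones gave 0.00326% at blastoderm and 0.227% at gastrula. Mean levels over shared CpGs differed by at most 0.00312, and the interval left out 0 for 1 of the 8 comparisons, worker blastoderm (0.0442) over sperm (0.0414; difference 0.00284, 95% interval 0.000573 to 0.00510, 723 CpGs). With reads pooled over CpGs this difference was 0.0117.

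In sea urchin, the region was split into a part of low and a part of high levels with a sharp border. No CpG had 5 reads in segments 1 and 2, and coverage began at position 207527 of Scaffold117 (Spur_3.1). From there to 243041, 806 CpGs over 35515 bp covered in at least 2 of the 4 samples had median levels below 0.5, and their mean was 0.00908 to 0.0114 per sample. The next CpG, 258 bp farther on at 243299, had a level of 1.00 in sperm and in blastulae. The one after it, at 243533, had 0.952, 0.923, 0.909 and 0.962 in sperm, oocytes, cleavage embryos and blastulae. These border CpGs were chosen after their values were seen.

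The methylated part filled segments 8 to 10. Mean levels of segment 8 were 0.835, 0.841, 0.858 and 0.818 in sperm, oocytes, cleavage embryos and blastulae, those of segment 9 were 0.778, 0.769, 0.793 and 0.795, and those of segment 10 were 0.596, 0.539, 0.670 and 0.658. Within a segment, the 4 stages thus lay close together compared with the step to segments 3 to 7, whose mean was 0.00897 to 0.0114. Here the covered CpGs numbered 13.8 per kb in the 3 methylated segments and 16.1 per kb in the other 7, or 15.0 to 33.2 per kb in segments 3 to 7, the only ones of these with any. Segment 10 held a gap of mostly low levels: 29 CpGs over 521 bp, from 265414 to 265934, had median levels of at most 0.380 and a mean of 0.0129 to 0.0766 per sample. After it, 3 methylated CpGs reached the last covered position at 266026.

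**Figure D3:**
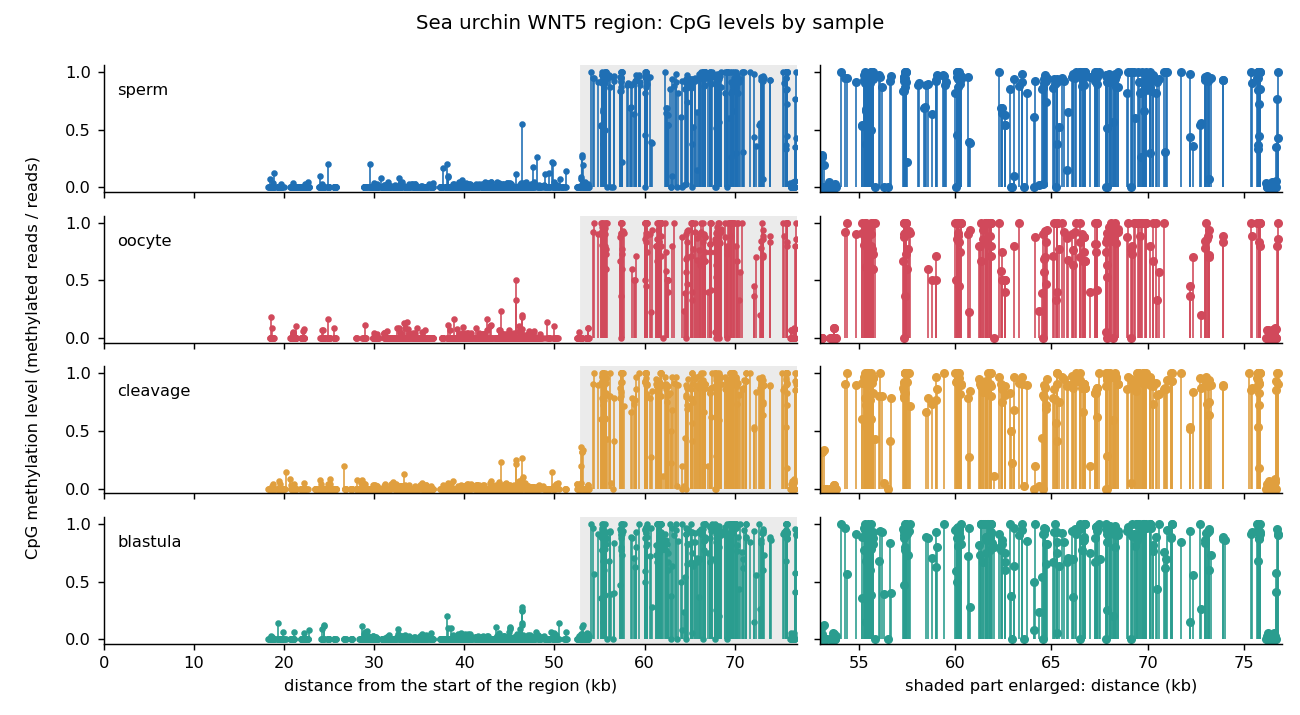
Methylation level of each CpG with at least 5 reads against its distance from the start of the sea urchin WNT5 region in kb, with 1 row per sample; the right column enlarges the shaded part. All 4 samples change from levels near 0 to levels near 1 at the same border, and segments 1 and 2 hold no covered CpG.

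Single CpGs with a median level below 0.5 also stood between methylated ones in the sea urchin region. Of the 18 runs below 0.5, 13 were a single CpG. One of these, at 257096, lies 4 bp before a methylated CpG at 257100 and had at most 0.0556 in any sample; this pair, too, was chosen after its values were seen. Longer methylated runs held up to 43 CpGs, over 4039 bp between 245861 and 249899, with a mean of 0.817 to 0.898 per sample. In segments 3 to 7, only 2 CpGs reached 0.5 in any sample: 235666, where sperm had 0.547, oocytes 0.182, cleavage embryos 0.267 and blastulae 0.277, and 235004 with 0.115, 0.5, 0.250 and 0 in the same order.

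**Figure D4:**
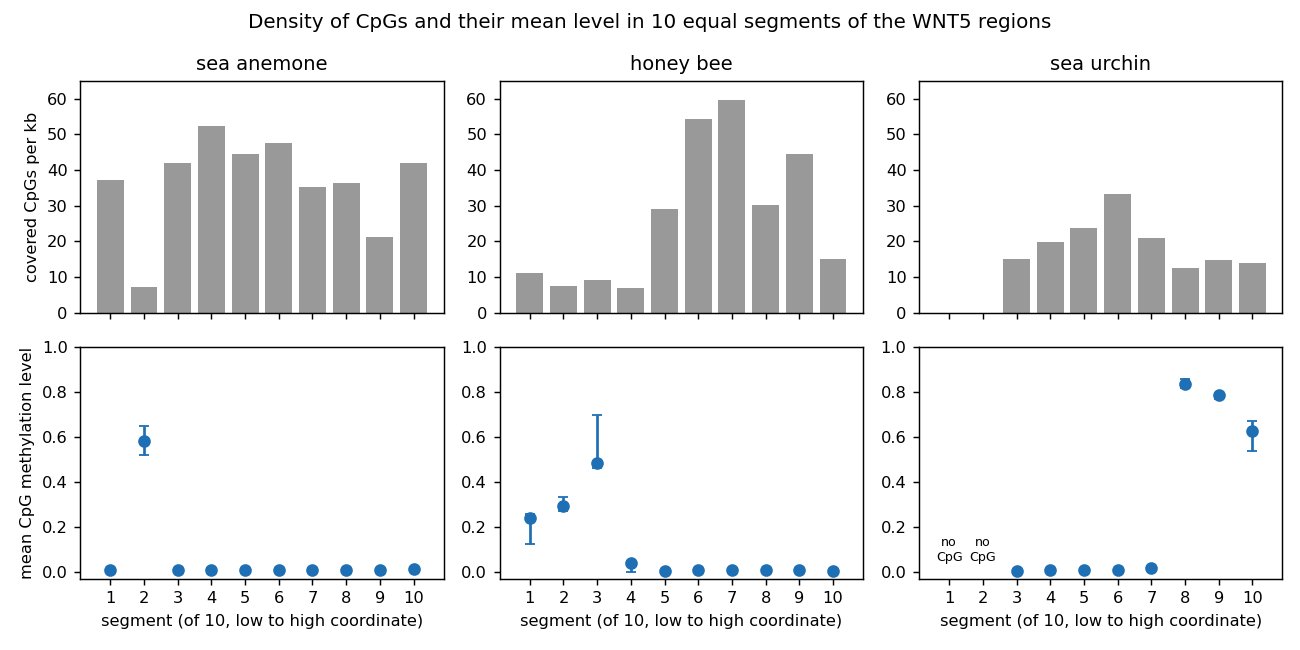
Covered CpGs per kb in each of 10 equal segments of the WNT5 regions (upper row) and the mean CpG level of the segment (lower row), where points are the median over the samples of the species and bars run from the lowest to the highest sample. In sea anemone and honey bee the methylated segments have between 7.08 and 11.1 CpGs per kb, fewer than most other segments. Honey bee segment 4 has fewer still, 6.8 per kb, at a median level of 0.04145.

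Differences between the stage samples of the sea urchin region were many at single CpGs, and their share was near or below that of the assembly. Stage cannot be told apart from library here. The part of C-to-T variants, which are read as unmethylated, was not tested. Between oocytes and sperm, 23 of 874 CpGs (2.63%) were called, against 3.71% of all CpGs tested. Of these, 9 were higher in oocytes (1.18% in the assembly) and 14 lower (2.53%). When this pair was thinned to the same number of reads, most of the lower calls and some of the higher ones were lost. No excess of a direction is therefore read from these counts. Between cleavage embryos and sperm, 27 of 1007 (2.68%) were called, against 2.93% in the assembly, with 21 higher in cleavage embryos (1.54%) and 6 lower (1.38%). Between cleavage embryos and oocytes the count was 3 of 911 (0.329%, against 0.724%), all higher in cleavage embryos (0.647%) and 0 lower (0.0764%), with 32 CpGs at an unadjusted p below 0.05 by Fisher's exact test. Between blastulae and cleavage embryos it was 16 of 1062 (1.51%, against 2.33%), with 6 higher in blastulae (1.09%) and 10 lower (1.23%). Among CpGs methylated in either sample, where a difference can be large, the shares were 20 of 192 (10.4%, against 11.3% in the assembly), 23 of 231 (9.96%, against 8.33%), 3 of 216 (1.39%, against 2.42%) and 13 of 261 (4.98%, against 6.58%) in the same order of comparisons. These comparisons share samples, so their calls are not separate evidence.

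The 69 calls fell on 46 CpGs, of which 11 were called in 2 comparisons and 6 in 3. Of the 46, 40 lie in the 3 methylated segments. Among the 40 with a level in all 4 samples, 7 were below 0.5 in sperm alone, 5 in oocytes alone, 3 in cleavage embryos alone and 3 in blastulae alone. Each of the 4 samples alone was from 0.5 at 1 CpG, 7 CpGs were from 0.5 in 2 samples, 6 were from 0.5 in all 4 and 5 in none. These CpGs were chosen by their calls, so the counts describe them and no stage.

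**Figure D5:**
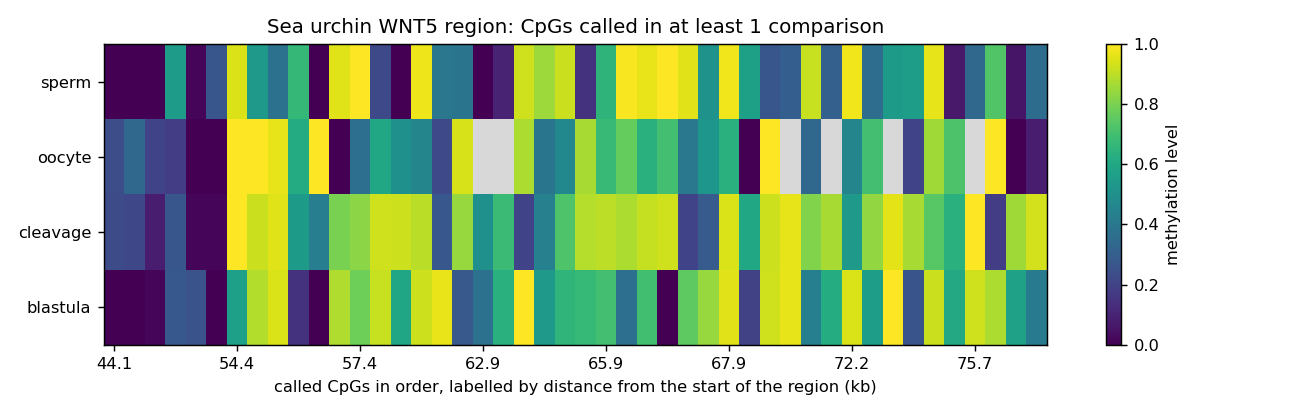
Methylation level (colour) in sperm, oocytes, cleavage embryos and blastulae of the 46 CpGs of the sea urchin WNT5 region that were called in at least 1 comparison, in order along the region; grey cells had fewer than 5 reads. Of the 40 CpGs with a level in all 4 samples, 18 are below 0.5 in a single sample and 7 are from 0.5 in 2 samples.

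Sperm had the lowest level at several of the CpGs with large differences. At 255042 oocytes had a level of 0.871 over 31 reads, cleavage embryos 0.891 over 64 and blastulae 0.671 over 82, against 0.147 over 34 in sperm (adjusted p = 1.21e-06 for oocytes and 2.45e-10 for cleavage embryos over sperm by Fisher's exact test). At 262409 oocytes had 0.722 over 18 reads, cleavage embryos 0.636 over 55 and blastulae 0.604 over 53, against 0.0690 of 58 in sperm (Fisher's exact test, adjusted p = 2.15e-05 and 5.41e-08 for the same comparisons). At 249267 cleavage embryos had 12 of 13 reads methylated (0.923) and sperm 0 of 13 (Fisher's exact test, adjusted p = 0.000267), with 0.5 in oocytes and 0.591 in blastulae, and the sperm reads allow a level of up to 0.231.

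Oocytes had the lowest or the highest level at others, in part on few reads. At 246609 oocytes had 0 of 5 reads methylated and sperm 19 of 20 (0.95; adjusted p = 0.00565 by Fisher's exact test), with 0.8 in cleavage embryos and 0.882 in blastulae; 0 of 5 reads allows a level of up to 0.6. At 257471 oocytes had 0 of 32 reads, which allows up to 0.0938, against 0.569 in sperm (Fisher's exact test, adjusted p = 8.46e-07), and cleavage embryos had 0.597 against that oocyte value (adjusted p = 8.02e-06), while blastulae were low too, with 0.197 against 0.597 in cleavage embryos (adjusted p = 0.00043). At 245067 oocytes had 5 of 5 reads and cleavage embryos 0.429, while sperm had 0 of 24 and blastulae 0 of 25, and cleavage embryos were called higher than sperm there as well.

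Cleavage embryos or blastulae had the lowest or the highest level at further CpGs. At 255713 blastulae had 0 of 23 reads methylated, which allows up to 0.130, and cleavage embryos 13 of 14 (0.929; adjusted p = 2.23e-06 by Fisher's exact test), with 1.00 in sperm and 0.7 in oocytes. At 253377 blastulae had 1.00 of 19 reads and cleavage embryos 0.2 of 10 (Fisher's exact test, adjusted p = 0.00126), with 0.926 in sperm and 0.875 in oocytes. At 265923, near the high end of the gap in segment 10, cleavage embryos had 0.857 of 14 reads against 0 of 12 in oocytes (adjusted p = 0.00448 by Fisher's exact test) and 0.0556 of 18 in sperm (adjusted p = 0.000429), and blastulae had 0.571. Its neighbour at 265934 had 0.933 in cleavage embryos against 0.0769 in oocytes (adjusted p = 0.00401 by Fisher's exact test) and 0.353 in sperm (adjusted p = 0.0334), and 0.407 in blastulae. With pairs thinned to the same number of reads, the calls over oocytes were lost at 265923 (Fisher's exact test, adjusted p = 0.0593) and 265934 (0.0920), as was that over sperm at 265934 (0.0656). The differences were then 0.875, 0.812 and 0.558 in the same order.

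Larger windows of the sea urchin region were rarely called. Of 47 to 56 windows of 1000 bp, 1 was called between oocytes and sperm (8.32% called in the assembly) and 1 between cleavage embryos and oocytes (5.09%). In both cases it was the window from 248001 to 249000, whose 3 shared CpGs averaged 0.571 in oocytes over 27 reads, against 0.830 in sperm over 212 reads (adjusted p = 0.00553 by Fisher's exact test). Cleavage embryos averaged 0.825 over 96 reads there, against 0.571 in oocytes (adjusted p = 0.0496 by Fisher's exact test). None was called between cleavage embryos and sperm (3.72%) or between blastulae and cleavage embryos (3.91%), with 14 windows at an unadjusted p below 0.05 by Fisher's exact test in each. More windows passed an adjusted p below 0.05 alone, but the uncalled ones differed by less than 0.2. Windows that passed numbered 7 of 47 for oocytes over sperm and 10 of 53 for cleavage embryos over sperm. They numbered 6 of 49 for cleavage embryos over oocytes and 9 of 56 for blastulae over cleavage embryos. With a minimum of 10 reads both window calls were lost, and 1 window was called in each of the 2 comparisons without oocytes instead, so no comparison kept its count.

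The mean level of the sea urchin region moved by at most 0.0117 between stages over shared CpGs. Oocytes had 0.192 against 0.197 in sperm (difference −0.00544, 95% interval −0.00945 to −0.00144, 874 CpGs). Cleavage embryos had 0.210 against 0.202 in sperm (0.00777, 0.00467 to 0.0109) and 0.219 against 0.207 in oocytes (0.0117, 0.00757 to 0.0158). Blastulae had 0.219 against 0.225 in cleavage embryos (−0.00642, −0.00954 to −0.00330). The last 3 of these 4 differences changed sign when reads were pooled over CpGs, to −0.0216, −0.00986 and 0.00561, so no direction is read from them. The first kept its sign and became −0.0178.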

How the data were processed

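WGBS calls of 18 samples were used. Per the paper's methods and the labels, the authors used Trimmomatic for trimming and Bismark for alignment to ASM20922v1 (sea anemone), GCA_000002195.1 (honey bee) or Spur_3.1 (sea urchin), then removed duplicates, clipped overlapping read pairs and extracted calls; the labels also name SAMtools 0.1.19, and other versions are not given in the sources used here. The deposited counts are reads with and without methylation per CpG, and the deposited fraction is the methylation level. It is not corrected for non-conversion, and a C-to-T variant is read as unmethylated. Replicates, where the labels name several, were pooled by the authors.

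The WNT5 regions were scaffold_116 281321 to 302505, chromosome 1 4598051 to 4625980 and Scaffold117 189249 to 266117, with starts taken to count from 0. The members and lists were chosen with earlier results of these data known. Exons and introns were not assigned, since no annotation of these builds was used and the drawn gene models did not line up with the printed coordinates. No sequence is shown, as no genome was used. CpGs needed 5 reads in a sample. Pairs of samples were compared in 22 comparisons by 2-sided Fisher's exact tests per CpG and per 1000-bp window of at least 3 CpGs, adjusted by Benjamini-Hochberg over the assembly, and called where the adjusted p was below 0.05 and levels differed by at least 0.2. Windows that overlap a region edge were kept. Named CpGs are the first and last methylated, the 10 with the highest median level, up to 5 called per comparison with the largest difference, and those said to be chosen after their values were seen. Alternatives covered minimum reads, thresholds, window size, weighting and thinning. Tests were checked on simulated data (Python 3.11.15, numpy 2.4.6, scipy 1.17.1, numba 0.67.0). The simulated reads were binomial, and changes were set only at well-covered methylated CpGs. The check therefore does not cover calls on few reads or variation between libraries.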

Additional observations from a re-analysis of the deposited data

Results flagged for a closer look

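The change of the sea anemone region's mean level at blastula differed between the populations. Over the 686 CpGs covered by 5 reads in all 4 samples, blastulae minus cleavage embryos was −0.000344 in Massachusetts (95% interval −0.00358 to 0.00289) and −0.00609 in Florida (−0.00837 to −0.00382), and the change in Massachusetts minus that in Florida was 0.00575 (0.00179 to 0.00971). The intervals cover counting error only, with 1 set of counts per stage, and 3 such pairs of changes were compared without adjustment. Outside segment 2, where almost no methylation was read, cleavage embryos and blastulae had means of 0.0116 and 0.00633 in Florida. In Massachusetts these were 0.0107 and 0.00998. Segment 2 had 0.632 and 0.5708 in Florida, and 0.5215 and 0.5355 in Massachusetts. Unconverted cytosines were not subtracted, and their part in the difference was not tested. For cleavage embryos minus sperm, the change in Massachusetts minus that in Florida was −0.00207 (−0.00603 to 0.00189), and for gastrula minus blastoderm in honey bee, that in workers minus that in drones was −0.000332 (−0.00373 to 0.00307).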

How the results depend on the processing

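No paired analysis was possible because each stage has 1 set of counts in which the replicates named by the labels are pooled; leaving out a replicate was not possible for the same reason. Averaged over samples, the region level was 0.0208 in sea anemone and moved to 0.0197 when reads were pooled over CpGs. In honey bee it was 0.0389, and it moved to 0.0412 with a minimum of 1 read, 0.0371 with 10 reads, 0.0370 with pooled reads and 0.0232 over CpGs covered in every sample. In sea urchin it was 0.211, and it moved to 0.201, 0.207, 0.179 and 0.1996 in the same order of settings. The number of methylated CpGs in sperm stayed within 1.5 times its value in each species under the 3 alternatives tried. A difference of at least 0.1 gave 1 called window in sea anemone in place of 0, and 13 in sea urchin in place of 2. In sea urchin a difference of at least 0.3 gave 0 windows and windows of 500 bp gave 4. A minimum of 10 reads also gave 2, but none in the 2 comparisons with oocytes and 1 each for cleavage embryos over sperm and blastulae over cleavage embryos. Thinning each pair to the same number of reads left 1 of 4 called CpGs in honey bee and 53 calls in place of 69 in sea urchin. The sea urchin losses fell mostly on the 2 comparisons with oocytes, and all calls of blastulae over cleavage embryos were kept. The 3 alternatives for the mean difference between samples were chosen after seeing the data. Pooling reads over CpGs turned it in sea urchin to −0.0216 for cleavage embryos over sperm, −0.00986 for cleavage embryos over oocytes and 0.00561 for blastulae over cleavage embryos. Pooling weights CpGs by their reads; which CpGs turned the sign was not tested. Depth limits honey bee oocytes most, with 395 covered CpGs.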

Other observations

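The stretches beside the WNT5 regions, each as long as the region itself, differed in methylation from side to side. In sea anemone the low-coordinate flank had 14 to 42 methylated CpGs per sample and a mean level of 0.0346 to 0.0730, while the high-coordinate flank had 0 in all 8 samples and a mean of 0.00682 to 0.0114. In honey bee the low-coordinate flank had 1 to 7 methylated CpGs, with a mean of 0.00895 to 0.0134, and the high-coordinate flank 18 to 48, with a mean of 0.161 to 0.219. The methylated runs of the honey bee region thus lay next to an almost unmethylated flank. In sea urchin the low-coordinate flank had 14 to 36 methylated CpGs and a mean of 0.0396 to 0.0674, and the high-coordinate flank 281 to 316, with a mean of 0.283 to 0.307, next to the methylated segments of the region. No covered CpG was found in sea urchin between position 172656, the last of the low-coordinate flank in any sample, and 207527.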
